A study of Mus musculus with 6 samples.

Results

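Cells with 2 or more Cdkn2a transcripts were examined in cultured mouse muscle-derived stem/progenitor cells (MDSPCs) from old animals. Cdkn2a-expressing cells are defined here as barcodes of the 3 old samples that held 5000 or more unique molecular identifiers (UMIs, tags that count RNA molecules), under 15% mitochondrial UMIs and 2 or more UMIs of Cdkn2a. They numbered 15875, or 51.9% of the 30598 kept cells of the old samples and part of 60325 kept cells in the whole series of 3 young and 3 old samples. They were chosen by their Cdkn2a UMI count. They were compared with cells of the same sample that held 0 Cdkn2a UMIs at a similar total UMI count. Cells with 0 UMIs are called cells without Cdkn2a below, although a cell that expresses Cdkn2a can also count 0 UMIs through sampling. Because Cdkn2a UMIs chose the cells, the Cdkn2a level and the share of these cells are given as descriptions and were not tested.

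MDSPCs are the slowly adhering fraction of enzymatically dissociated skeletal muscle, obtained by serial preplating on collagen type I. Young and old populations alike were grown in proliferation medium with fetal bovine serum, horse serum and chick embryo extract, without any further treatment named in the labels, and their RNA was counted cell by cell in droplets from the 3′ end. Each sample is 1 population labelled as a biological replicate, and age in months, sex and strain are not given in the sources used here. The matrices held 8912 to 12808 barcodes per sample, and the median kept cell had 13181 to 20111 UMIs.

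Cdkn2a encodes 2 unrelated proteins from alternative first exons joined to shared downstream exons. The p16 protein binds the cyclin D-dependent kinases Cdk4 and Cdk6 and keeps the retinoblastoma protein active, which holds cells out of S phase. The p19Arf protein binds Mdm2 and stabilises p53. In muscle the locus is kept silent by Polycomb proteins in resting stem cells, and its expression is widely used as a mark of ageing and senescence. Arrested senescent cells are known to release cytokines, proteases and growth factors, so cell cycle, myogenic state and secreted genes were each described.

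In the GRCm38 (mm10) annotation, Cdkn2a (ENSMUSG00000044303) occupies the minus strand of chr4:89274471-89294653. The transcript Cdkn2a-202, which carries the p19Arf first exon, starts at 89294653, and Cdkn2a-201, which carries the p16 first exon, starts at 89282192. Both use the same second exon (chr4:89276645-89276985) and end in the same last exon, and a 3′ count therefore did not tell them apart. The 216 bases immediately before each start (RefSeq promoter table, GRCm38.p6, minus strand, 5′ to 3′) are printed because the counted gene joins the output of both promoters. Capitals mark the GC box, GGGCGG or its reverse complement CCGCCC.
Cdkn2a-202, chr4:89294654-89294869: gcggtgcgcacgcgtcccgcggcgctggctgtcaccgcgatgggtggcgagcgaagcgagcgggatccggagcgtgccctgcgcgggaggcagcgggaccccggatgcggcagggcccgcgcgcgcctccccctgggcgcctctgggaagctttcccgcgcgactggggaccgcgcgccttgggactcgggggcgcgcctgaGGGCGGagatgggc
Cdkn2a-201, chr4:89282193-89282408: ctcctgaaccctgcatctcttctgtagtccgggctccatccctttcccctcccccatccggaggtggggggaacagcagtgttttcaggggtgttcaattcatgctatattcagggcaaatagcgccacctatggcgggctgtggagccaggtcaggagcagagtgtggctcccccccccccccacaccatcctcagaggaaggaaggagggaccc
The p19Arf window held 1 GC box and 35 CpG dinucleotides at 78.7% G or C. The p16 window held 0 GC boxes and 4 CpG dinucleotides at 60.6% G or C. Among 32851 promoter windows of this length in the table, 31.6% held a GC box and the median window had 5 CpG dinucleotides.

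The 3 old populations differed widely in how many cells carried Cdkn2a. In old replicate 1, 2875 of 9906 kept cells (29.0%, exact 95% binomial interval 28.1% to 29.9%) had 2 or more UMIs. In old replicate 2 it was 1509 of 8513 cells (17.7%, 16.9% to 18.6%), and in old replicate 3 it was 11491 of 12179 cells (94.4%, 93.9% to 94.8%). Old replicate 3 thus supplied most of these cells, and all later results are given by sample. In the young samples 221, 354 and 127 cells met the same cutoff, or 2.62%, 3.32% and 1.19%. After each cell was thinned to 5000 UMIs, the shares were 8.83%, 2.28% and 67.5% in the old and 0.414%, 0.244% and 0.0564% in the young samples. The intervals cover counting error only.

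Cdkn2a reached 107, 32.0 and 494 CPM (counts scaled to a common total per sample) over all kept cells of old replicates 1, 2 and 3, against at most 12.5 CPM in a young sample. The median Cdkn2a-expressing cell had 3, 3 and 7 Cdkn2a UMIs in the old samples, and the highest had 74, 14 and 45. At the edge of the definition, cells with 2 UMIs numbered 1394, 730 and 716 and cells with 1 UMI numbered 2995, 1109 and 455. If all Cdkn2a UMIs of a sample had been spread evenly over its cells in proportion to depth, 23.5%, 52.1% and 0.488% of old cells would have had 0 UMIs. The observed shares with 0 UMIs were 40.7%, 69.2% and 1.91%. With 2 or more UMIs the even spread gives 45.6%, 15% and 97.4%, beside the observed 29.0%, 17.7% and 94.4%. In the young samples the observed shares of 84.3%, 80.9% and 88.4% lay near the even-spread values of 82.8%, 79.8% and 88.0%. These values describe the counts that chose the cells and support nothing further.

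**Figure D1:**
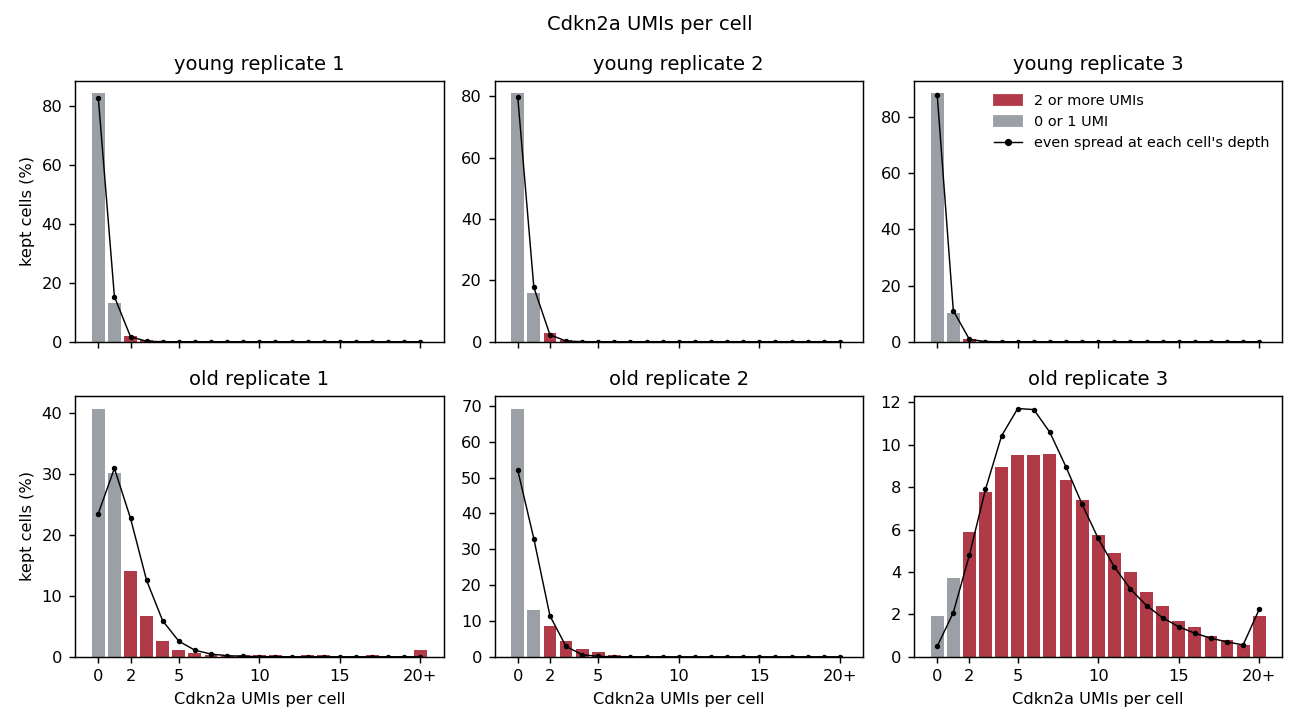
Cdkn2a UMIs per kept cell in each sample. Bars give the percent of kept cells at each UMI count (red for 2 or more, grey for 0 or 1, the last bar for 20 or more), and the black line gives the percent that an even spread of the sample's Cdkn2a UMIs over depth would give. Old replicate 3 is centred well above the cutoff, old replicate 2 has more cells at 0 than the line (69.2% against 52.1%), and the young samples lie near the line at 0 UMIs and above it at 2 or more (2.62%, 3.32% and 1.19% against 1.87%, 2.51% and 0.886%).

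Several measures of cell quality bear on these cells. Barcodes under 1000 UMIs, which can hold free RNA, debris or damaged cells, gave Cdkn2a at 21.1 CPM (1 UMI), 12.1 CPM (1 UMI) and 162 CPM (22 UMIs) in old replicates 1, 2 and 3. Scrublet called 1297 doublets (10.6% of kept cells) in old replicate 3, with 11.1% among Cdkn2a-expressing cells and 1.72% among cells without Cdkn2a. It called 0 or 1 doublet in every other sample and was taken not to have worked there. Between 1.25% and 1.56% of the kept barcodes of a sample also occurred in another sample. The part of doublets and free RNA in the results below was not tested beyond the alternative without the highest doublet scores.

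To compare at equal depth, Cdkn2a-expressing cells and cells with 0 UMIs were paired in narrow classes of total UMIs, which gave 2368, 1485 and 233 cells of each kind in old replicates 1, 2 and 3. Before matching, the median depth was 15727, 22820 and 13349 UMIs with Cdkn2a and 12391, 19419 and 9089 without. In old replicate 3 the comparison used 233 of the 11491 Cdkn2a-expressing cells, because no more than 233 cells held 0 Cdkn2a UMIs. Counts were summed by sample and kind and tested in edgeR with the sample as a block. Of 13118 genes, 0 passed an adjusted p of 0.05 (0% called), and the adjusted p was 0.999975 for every gene. At an unadjusted p under 0.05 there were 342 genes (2.61%), and DESeq2 called 8 genes (0.061%), all lower. As a plain description, 1506 genes (11.5%) were higher and 1716 genes (13.1%) were lower in Cdkn2a-expressing cells of all 3 samples. No old gene below is therefore called changed by the main test. In the matched comparison without old replicate 2, 1 gene passed in each direction (0.00793%). With every cell thinned to 5000 UMIs and not matched, 7 genes passed as higher (0.0567%) and 73 as lower (0.591%). That comparison chose its cells anew by the Cdkn2a UMIs left after thinning, 2 or more against 0. It held 875, 194 and 8224 cells against 6888, 7460 and 1441 in old replicates 1, 2 and 3. Its cells without Cdkn2a thus included cells that had Cdkn2a UMIs before thinning. In the thinned comparison Cdkn1a (log2 fold change -0.50, edgeR adjusted p = 0.000814), Mymk, Mef2c and Fst passed as lower and Cdkn2b (0.94, adjusted p = 0.0150) and Gchfr as higher.

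The labelled identity was checked against markers of other cell types. The fibroblast marker Pdgfra reached at most 2.01 CPM in the matched cells, the endothelial marker Pecam1 at most 1.43 CPM and the leukocyte marker Ptprc at most 0.714 CPM. Of the 12 fibro-adipogenic markers, between 1 and 5 were at 0 in a class, and the list summed to 298 to 574 CPM with Cdkn2a and 337 to 471 CPM without. Most of that sum was Gsn (up to 323 CPM), Ly6a (up to 173 CPM), Cd34 (up to 127 CPM) and Col3a1 (up to 74.3 CPM), while Lum was at 0. In old replicate 3, 7 of the 8 fibro-adipogenic markers tested were lower with Cdkn2a and 1 was higher (median log2 ratio -1.65). Dcn had 0 UMIs with and 28 without Cdkn2a there, Mfap5 1 and 14, Cd34 63 and 191, and Col3a1 208 and 88. In old replicates 1 and 2, 6 of the 8 were higher. The part of these markers in the results of each sample was not tested. Schwann and tendon markers summed to 123 to 317 CPM, nearly all of it the tendon factor gene Scx, with Tnmd at 0 and Sox10 at or under 0.0543 CPM. Endothelial markers summed to at most 3.21 CPM and macrophage and blood markers to at most 33.3 CPM in either kind of cell. Myogenic regulators were present in each old sample, with Myod1 at 53, 344 and 939 CPM in Cdkn2a-expressing cells.

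Many Cdkn2a-expressing cells were called in S phase or G2/M and held RNA of Mki67 and Top2a, and the shares lay close to those of cells without Cdkn2a. In old replicate 1, 16.8% of them were called S phase and 51.4% G2/M, against 15% and 50.7% of cells without Cdkn2a (cells thinned to 5000 UMIs). In old replicate 2 the calls were 5.45% S and 30.9% G2/M, against 6.06% and 29.0%. For old replicate 3 they were 8.58% S and 43.8% G2/M, against 5.58% and 45.5%. The share in neither phase, which covers G1 and resting cells, was 31.8% against 34.2%, 63.6% against 64.9% and 47.6% against 48.9%. The mean difference was -1.67 points ± 0.673 (SD, n = 3, lower in 3 of 3, exact two-sided sign-flip p = 0.25, the smallest that 3 samples allow). Another random draw of the matched cells gave a mean of 0.380 points, so this difference has no settled direction. Populations differed from each other by far more than the 2 kinds of cell within a population.

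Genes of the cell cycle were mostly close in both kinds of cell, and the direction of most of them differed by sample. Of 43 S-phase genes, 8 were higher in all 3 samples and 3 lower, with a median log2 fold change of 0.05 against -0.00 for all genes tested. In old replicates 1, 2 and 3, 35, 16 and 27 of them were higher (median log2 ratios 0.11, -0.01 and 0.11). Among all genes, 11.5% were higher and 13.1% lower in all 3 samples. The replicative helicase subunit Mcm7 stood at 131 against 125, 67.1 against 61.3 and 69.5 against 49.0 CPM (log2 fold change 0.20 ± 0.11 SE). The replication clamp Pcna stood at 179 against 163, 99.8 against 98.9 and 141 against 102 CPM. Of 54 G2/M genes, 2 were higher and 4 lower in all 3 samples, with a median of -0.03. By sample, 41, 12 and 20 of the 54 were higher (median log2 ratios 0.05, -0.08 and -0.05). Mki67, a marker of cycling cells, stood at 107 against 110, 44.7 against 49.1 and 47.0 against 58.4 CPM. A Mki67 UMI was found in 33.8%, 14.3% and 14.2% of thinned Cdkn2a-expressing cells and in 34.2%, 15.7% and 20.2% of the others. Top2a, the topoisomerase of dividing cells, was found in 61.7%, 25.5% and 24.0% against 58.0%, 27.3% and 29.6%.

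**Figure D2:**
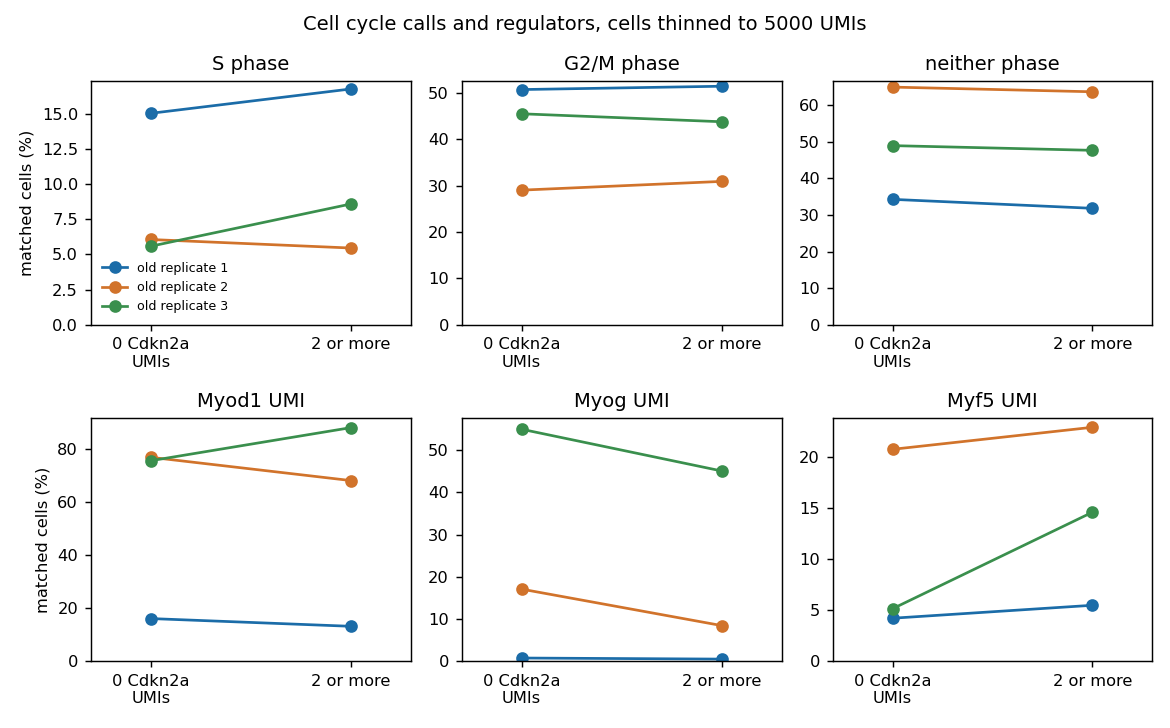
Percent of depth-matched cells, thinned to 5000 UMIs, called S phase, G2/M or neither (top) or holding a UMI of Myod1, Myog or Myf5 (bottom). Each line joins cells with 0 Cdkn2a UMIs and cells with 2 or more in 1 old sample. The phase lines are nearly flat and the samples stand apart, while the Myog share is lower with Cdkn2a in each sample (45.1% against 54.9% in old replicate 3).

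Cdkn2b, described below, was higher with Cdkn2a in old replicates 1 and 2 and about equal in old replicate 3. No other kinase inhibitor was higher in all 3 samples. Of 19 genes for G1 cyclins, kinases, kinase inhibitors and pocket proteins, 6 were lower and 2 higher in all 3 samples. The 2 higher genes include Cdkn2b, with a log2 ratio of 0.03 in old replicate 3. Among all genes the shares were 13.1% and 11.5%. Cdkn1a, which encodes the p53-induced inhibitor p21, stood at 373 CPM with and 413 CPM without Cdkn2a in old replicate 1, at 1448 and 1743 CPM in old replicate 2, and at 152 and 283 CPM in old replicate 3. It was lower with Cdkn2a in each sample (log2 fold change -0.42 ± 0.15 SE). Cdkn2d, which encodes the p19Ink4d inhibitor of Cdk4 and Cdk6, stood at 33.4 against 34.5, 42.0 against 63.9 and 78.7 against 103 CPM (-0.34 ± 0.12). Cdkn2c, the p18 inhibitor of the same kinases, had -0.22 ± 0.11 and the pocket protein Rb1 -0.21 ± 0.10. Ccne1, the cyclin of S-phase entry, was higher in each sample (34.1 against 30.0, 25.3 against 23.8 and 37.4 against 29.2 CPM). The D cyclins split by sample. Ccnd1 stood at 775 against 722 and 442 against 291 CPM in old replicates 1 and 2 but at 347 against 517 CPM in old replicate 3.

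Of 21 p53 pathway genes, 4 were higher and 1 lower in all 3 samples, beside 11.5% and 13.1% of all genes. The median log2 fold change was 0.04, but the samples differed in direction. In old replicates 1, 2 and 3, 6, 19 and 10 of the 21 were higher and 15, 2 and 11 lower. The median log2 ratios were -0.10, 0.22 and -0.02. Gdf15, a stress-induced secreted factor of the TGF-beta family and a p53 target, stood at 28.7 CPM with and 25.4 CPM without Cdkn2a in old replicate 1, at 281 and 175 CPM in old replicate 2, and at 34.4 and 24.1 CPM in old replicate 3 (0.45 ± 0.12 SE). The antiproliferative p53 target Btg2 stood at 40.0 against 39.8, 50.8 against 32.2 and 95.1 against 64.6 CPM (0.39 ± 0.14). The one gene of this list lower in all 3 samples was Cdkn1a. Trp53 itself stood at 160 against 158, 159 against 144 and 122 against 114 CPM. The log2 fold change of Gdf15 turned to -0.018 in thinned unmatched cells, and Btg2 was about equal in old replicate 1.

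Of the flanking genes of the Cdkn2a locus, Mtap was higher in Cdkn2a-expressing cells of all 3 samples, and Cdkn2b was higher in old replicates 1 and 2 and about equal in old replicate 3. Cdkn2b (chr4:89306299-89311039), which encodes the p15 kinase inhibitor and lies 11.6 kb from the Cdkn2a gene, stood at 42.4 CPM with and 23.0 CPM without Cdkn2a in old replicate 1. It stood at 28.9 and 4.08 CPM in old replicate 2 and at 19.1 and 18.7 CPM in old replicate 3. The fitted log2 fold change was 1.46 ± 0.61 SE, made up of log2 ratios of 0.88, 2.80 and 0.03 in the 3 samples. In old replicate 2 the unscaled sums of 1061 and 146 Cdkn2b UMIs gave 30.2 CPM (exact 95% Poisson interval 28.4 to 32.1, counting error only) and 4.17 CPM (3.52 to 4.90). The 50 and 48 UMIs of old replicate 3 gave 17.8 CPM (13.2 to 23.5) and 17.1 CPM (12.6 to 22.7), and these intervals overlap. Mtap (chr4:89137122-89181081), a methionine salvage enzyme gene on the other flank, stood at 216 against 201, 71.8 against 54.2 and 42.0 against 31.5 CPM (0.29 ± 0.10). In old replicate 3 its 110 and 81 UMIs gave unscaled values of 39.3 CPM (32.3 to 47.3) and 28.9 CPM (23.0 to 35.9). These Mtap intervals overlap too. Of the 18 listed neighbours and regulators, including the Polycomb genes Bmi1 and Ezh2, 2 were higher and 3 lower in all 3 samples. The 2 higher genes were Mtap and Cdkn2b, the latter with a log2 ratio of 0.03 in old replicate 3. Among all genes the shares were 11.5% and 13.1%. Bmi1, a repressor of the locus, stood at 24.7 against 26.0, 37.0 against 42.0 and 40.9 against 44.0 CPM.

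The clearest pattern was in myogenic state, where the summed RNA of differentiation genes was lower in Cdkn2a-expressing cells. Of 27 sarcomere genes tested, 19 were lower and 0 higher in all 3 samples, against 13.1% lower among all genes, and the median log2 fold change was -1.50. By sample the median log2 ratio was -2.37, -2.12 and -0.15, so old replicate 3 carried little of it. Acta1, skeletal alpha-actin, stood at 1.04 CPM with and 46.3 CPM without Cdkn2a in old replicate 1. It stood at 41.6 and 340 CPM in old replicate 2 and at 1787 and 2438 CPM in old replicate 3 (log2 fold change -2.73 ± 1.18 SE). The fast myosin light chain gene Mylpf stood at 7.68 against 115, 108 against 687 and 5083 against 6151 CPM (-2.28 ± 0.92). Troponin genes followed, with Tnnt1 at 2.48 against 10.7, 30.6 against 102 and 285 against 364 CPM (-1.35 ± 0.40) and Tnni1 at -1.80 ± 0.58. Cardiac actin Actc1 had -2.40 ± 0.94 and titin Ttn -1.26 ± 0.50. Without old replicate 3, 8 of 25 sarcomere genes passed as lower in edgeR, against 0.299% of all genes. Without old replicate 2, 0 of 27 passed, and without old replicate 1, 0 of all 12360 genes tested passed. The fit without old replicate 3 also called 1 of 7 fibro-adipogenic markers higher, Ly6a (log2 fold change 0.54, edgeR adjusted p = 0.0435), against 0.0673% of all genes. Cd34 stood at 121 against 111 and 47.3 against 29.2 CPM in old replicates 1 and 2. In old replicate 3 the unscaled CPM were 22.5 against 68.2 for Cd34 and 17.1 against 18.2 for Ly6a, and 7 of 8 such markers were lower. The part of these markers in the myogenic result was not tested.

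Among 19 genes of myogenic commitment and fusion, 7 were lower and 0 higher in all 3 samples, with a median of -0.26. Among all genes the shares were 13.1% and 11.5%. Myog, the transcription factor that starts terminal differentiation, stood at 1.11 against 10.7, 64.8 against 189 and 864 against 1541 CPM (-1.67 ± 0.51 SE). A Myog UMI was found in 0.549%, 8.48% and 45.1% of thinned Cdkn2a-expressing cells and in 0.802%, 17.1% and 54.9% of the others (mean difference -6.25 points ± 5.23 SD, n = 3, exact sign-flip p = 0.25). In old replicate 1 few cells of either kind thus held Myog, while the matched sums were 43 and 409 Myog UMIs. The fold changes of summed counts in that sample therefore do not describe its typical cell. Mymk, the fusion protein myomaker, stood at 1.40 against 7.82, 6.56 against 32.5 and 182 against 303 CPM (-1.76 ± 0.42). Its partner Mymx had -1.39 ± 0.52, the cofactor Mef2c -0.90 ± 0.30 and the Notch ligand Dll1 -0.47 ± 0.13. DESeq2 called Mymk (log2 fold change -1.83, adjusted p = 0.000825) and Tnnt1 (-1.39, adjusted p = 0.0420) lower.

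Earlier myogenic genes split by sample, with most progenitor genes lower in old replicates 1 and 2 and higher in old replicate 3. Myod1, the determination factor, stood at 53 against 64.1 and 344 against 477 CPM in old replicates 1 and 2 and at 939 against 674 CPM in old replicate 3. Myf5, its relative in early progenitors, stood at 13.1 against 9.80, 57.2 against 50.9 and 34.4 against 10.9 CPM, higher in each sample (0.50 ± 0.24 SE). A Myf5 UMI was found in 5.49%, 22.9% and 14.6% of thinned Cdkn2a-expressing cells against 4.22%, 20.7% and 5.15%. Pax7, the stem cell factor, stood at 12.3 against 9.91, 18.0 against 22.3 and 38.6 against 20.2 CPM, lower in old replicate 2. Of 18 progenitor genes, 1 was higher and 0 lower in all 3 samples, beside 11.5% and 13.1% of all genes. All 18 were higher with Cdkn2a in old replicate 3 (median log2 ratio 0.71), whereas 14 and 16 of them were lower in old replicates 1 and 2 (medians -0.20 and -0.28).

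**Figure D3:**
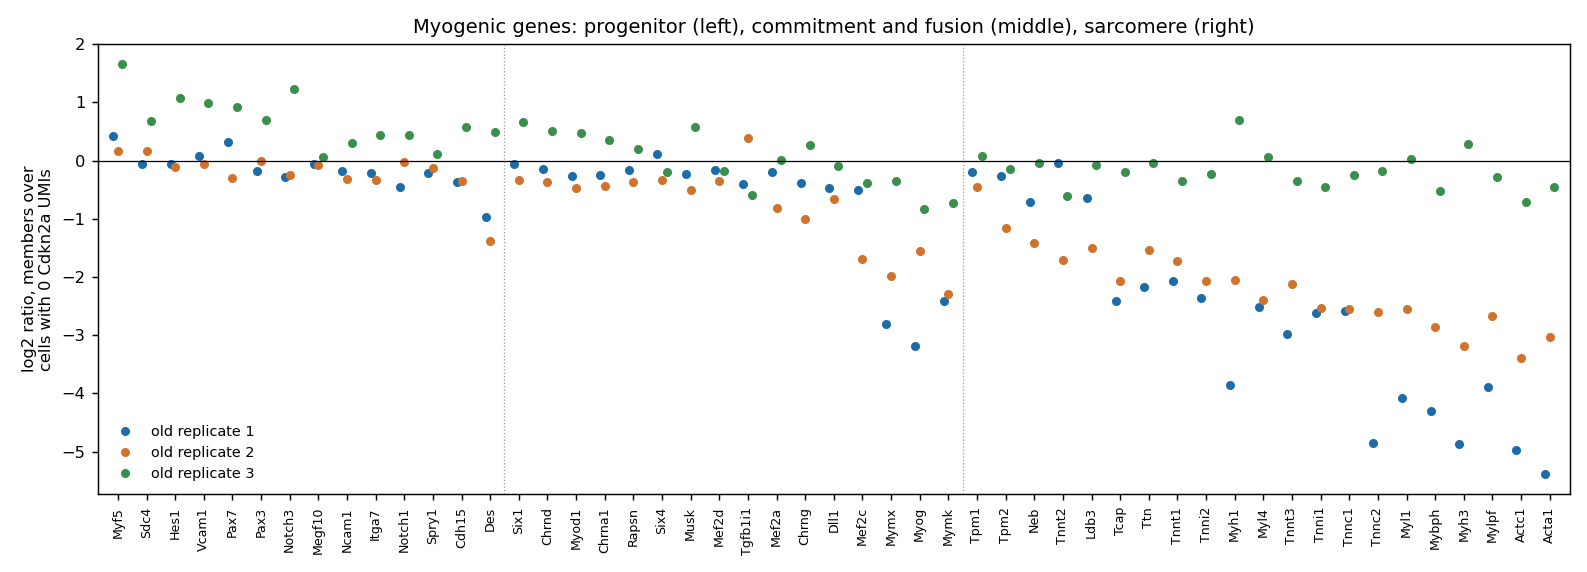
Log2 ratio of Cdkn2a-expressing cells over cells with 0 Cdkn2a UMIs for each myogenic gene with a mean log2 CPM over 3, by old sample (colours), from matched sums with a prior count of 2. Genes are ordered by fitted fold change within each group. Sarcomere genes of old replicates 1 and 2 lie far below 0 (medians -2.37 and -2.12), while old replicate 3 stays near 0 (median -0.15).

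Smooth-muscle and mural markers partly moved with the sarcomere genes. Acta2, smooth-muscle actin, which early myocytes also express, stood at 9.44 against 36.8, 169 against 388 and 1523 against 2093 CPM (-1.18 ± 0.33 SE). The 9 mural markers summed to 30.6, 217 and 1479 CPM with Cdkn2a and 59.7, 441 and 2043 CPM without, mostly Acta2 in old replicates 2 and 3, and the pericyte marker Rgs5 was at or under 0.883 CPM. Their part in the myogenic result was not tested. When cells with a Myog UMI were left out before matching, 0 genes passed and 152 had an unadjusted p under 0.05, against 342 with all cells. That comparison held 2346, 1253 and 86 cells of each kind, against 2368, 1485 and 233 with all cells. It tested 12631 genes against 13118. The part of the smaller number of cells in the lower count was not tested.

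Secreted genes had no common direction. Of 49 cytokine, chemokine and growth factor genes tested, 7 were higher and 7 lower in all 3 samples, and the median log2 fold change was -0.07. These counts lie near the shares among all genes, 11.5% higher and 13.1% lower. The list took 0.725%, 0.896% and 0.771% of UMIs in thinned Cdkn2a-expressing cells and 0.678%, 0.844% and 0.466% in the others (mean difference 0.135 points ± 0.147 SD, n = 3, higher in 3 of 3, exact sign-flip p = 0.25). This share is a sum in which abundant genes weigh most, so it does not give the direction of most listed genes. Spp1, osteopontin, the most abundant gene of that list in Cdkn2a-expressing cells of each old sample, stood at 3447 against 3114, 6274 against 6266 and 6168 against 3064 CPM (0.38 ± 0.22 SE). Its difference was largest in old replicate 3, where 33 of the 49 genes were lower and 15 higher (median log2 ratio -0.37). In old replicate 1, 28 were lower and 21 higher (median -0.04). Old replicate 2 went the other way, with 33 higher and 16 lower (median 0.16). Il6, the best-known senescence cytokine, was under 0.4 CPM in every class of cells by Cdkn2a count in all 3 old samples. Fst, the myostatin antagonist follistatin, stood at 15.7 against 19.5, 17.3 against 35.8 and 53.5 against 78.2 CPM (-0.65 ± 0.15). Igf2, a growth factor of differentiating myoblasts, stood at 7.35 against 18.5 CPM in old replicate 2 and at 81.0 against 88.0 CPM in old replicate 3.

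The chemokine genes Ccl2 and Ccl7, singled out after their values were seen, went in opposite directions between samples. Ccl2, which attracts monocytes, stood at 68.0 against 38.9 CPM in old replicate 1 and at 39.3 against 13.3 CPM in old replicate 2, but at 3.82 against 44.8 CPM in old replicate 3. Ccl7, its neighbour in function, stood at 15.2 against 6.88, 30.0 against 11.4 and 5.73 against 18.3 CPM. Without old replicate 3, Ccl7 passed as higher (log2 fold change 1.29, edgeR adjusted p = 0.00708), 1 of 51 genes of that list and 0.0673% of all genes. The sign of both chemokine genes in old replicate 3 was thus opposite to that in the other 2 samples.

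Proteases, protease inhibitors and growth factor binding proteins also split by sample. Of 34 genes, 2 were higher and 2 lower in all 3 samples, beside 11.5% and 13.1% of all genes. The median log2 ratios were -0.07, 0.18 and -0.83. Serpine2, a thrombin and plasminogen activator inhibitor, stood at 121 against 118, 220 against 161 and 129 against 71.2 CPM (0.42 ± 0.15 SE). Timp2, an inhibitor of matrix metalloproteinases, stood at 592 against 605, 1141 against 1314 and 533 against 654 CPM (-0.17 ± 0.08). Timp1 stood at 582 against 633, 489 against 478 and 534 against 1345 CPM. Igfbp5, a binding protein of the insulin-like growth factors, stood at 72.5 against 112 and 551 against 1499 CPM in old replicates 1 and 2 and at 365 against 181 CPM in old replicate 3.

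**Figure D4:**
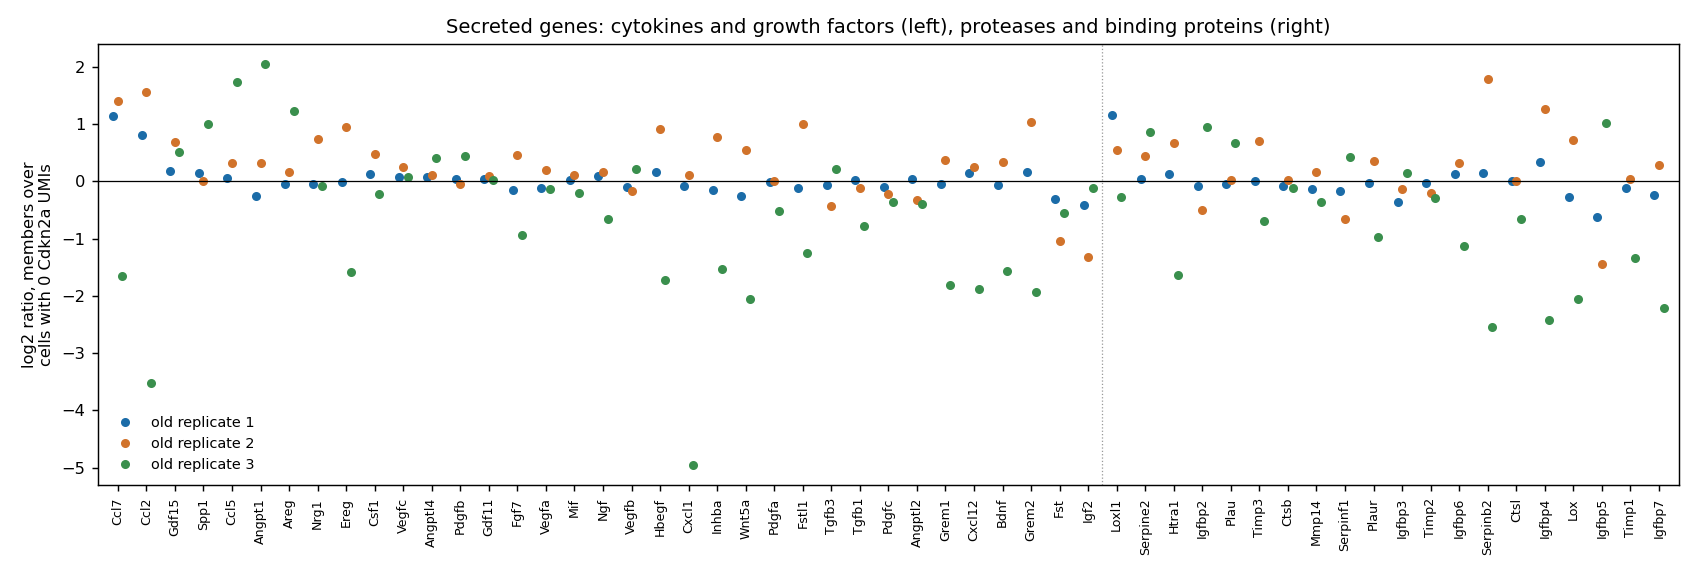
Log2 ratio of Cdkn2a-expressing cells over cells with 0 Cdkn2a UMIs for secreted genes with a mean log2 CPM over 3, by old sample (colours), ordered by fitted fold change within each group, with 1 gene not shown. Points of old replicate 3 lie on the opposite side of 0 from old replicate 2 for Ccl2 (-3.52 against 1.56), Ccl7, Igfbp4 and Igfbp5.

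Matrix and interferon genes differed in how often the samples shared a direction. Of 38 extracellular matrix genes, 2 were higher and 3 lower in all 3 samples, beside 11.5% and 13.1% of all genes. Thbs2, a matrix glycoprotein gene, stood at 1.58 against 0.366, 28.6 against 17.8 and 5.35 against 2.72 CPM (1.00 ± 0.26 SE). The small proteoglycan gene Bgn stood at 10.2 against 13.9, 1.72 against 2.57 and 65.7 against 327 CPM (-1.16 ± 0.47). Of 20 interferon response genes, 5 were higher and 2 lower in all 3 samples, beside 11.5% higher and 13.1% lower among all genes. By sample, 7, 15 and 15 of the 20 were higher, with median log2 ratios of -0.04, 0.18 and 0.66. H2-K1, an MHC class I heavy chain, stood at 85.9 against 77.5, 51.3 against 37.7 and 25.2 against 15.2 CPM (0.37 ± 0.12). Ifitm3, an antiviral membrane protein, stood at 1229 against 1206, 1006 against 907 and 812 against 455 CPM (0.33 ± 0.17).

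Since no gene passed, up to 6 genes per direction with the lowest unadjusted p were taken from those with a mean log2 CPM above 5 and the same direction in all 3 samples. They did not pass the adjusted test. The higher ones were the mast cell protease gene Mcpt8 (0.69 ± 0.12 SE), the tetrahydrobiopterin regulator Gchfr (0.67 ± 0.12), the glutathione peroxidase Gpx3 (0.48 ± 0.11), Fuom (0.41 ± 0.11), Sema3e (0.40 ± 0.11) and the oxidation resistance gene Oxr1 (0.39 ± 0.10). Gchfr stood at 115 against 82.3, 8.82 against 4.41 and 58.4 against 39.3 CPM. The lower ones were the peptide hormone gene Cck (-1.14 ± 0.15), the muscle gene Mustn1 (-0.59 ± 0.13), Cap2 (-0.52 ± 0.12), the creatine synthesis enzyme Gatm (-0.44 ± 0.08), the stress gene Gadd45a (-0.42 ± 0.08, but 0.080 with Myog-positive cells left out) and the pyruvate carrier subunit Mpc1 (-0.34 ± 0.09). Cck stood at 33.9 against 63.7, 0.109 against 0.140 and 95.1 against 260 CPM, and DESeq2 called it lower (log2 fold change -1.13, adjusted p = 0.0106). In old replicate 2 these were 4 and 5 Cck UMIs, so its direction there is not settled.

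Within each sample the cells were next ordered by Cdkn2a UMIs without matching on depth, as a description on unscaled CPM. In old replicate 1 Myog stood at 14.5 CPM at 0 UMIs, 2.29 at 1 UMI, 1.20 at 2 UMIs, 0.363 at 5 to 9 UMIs and 0.337 at 10 or more. In old replicate 2 it stood at 216, 155, 87.0 and 11.9 CPM at 0, 1, 2 and 5 to 9 UMIs and at 6.98 CPM in the 5 cells with 10 or more. In old replicate 3 it stood at 1414, 2064 and 2058 CPM at 0, 1 and 2 UMIs and then at 891 CPM at 5 to 9 UMIs and 496 CPM at 10 or more. The last 2 classes of old replicate 1 were about equal and near 0 CPM, and the last class of old replicate 2 held only 5 cells. The order among these highest classes is therefore not settled. Myog was lower at 5 or more Cdkn2a UMIs than at 0 UMIs in each sample, whereas in old replicate 3 cells with 0 UMIs did not have the highest level. Acta1 followed the same order in old replicate 3, with 2236 CPM at 0 UMIs, 4111 at 1 UMI and 1067 at 10 or more.

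Cdkn2b in old replicate 2 changed between 0 and 1 UMI rather than at the cutoff, with 4.46 CPM at 0, 26.8 at 1, 28.2 at 2 and 30.2 at 5 to 9 UMIs. Old replicate 3 kept between 13.3 and 17.8 CPM in all 6 classes. Igfbp5 in old replicate 2 stood at 1571, 976, 746 and 242 CPM at 0, 1, 2 and 5 to 9 UMIs. In old replicate 3 Spp1 stood at 2810 CPM at 0 UMIs, 3617 at 2 UMIs and 9411 at 10 or more, and Igfbp4 stood at 409, 101 and 41.7 CPM. The phase calls also moved with the Cdkn2a count there, with neither phase at 48.9%, 51.4% and 38.5% in the same classes. Median depth moved too, from 9089 UMIs at 0 to 16873 UMIs at 10 or more.

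Old replicate 1 held 310 cells with 10 or more Cdkn2a UMIs that had a profile of their own. Cdkn2b stood at 106 CPM in them against 31.1 CPM in cells with 2 UMIs, and Ccl2 at 234 against 41.1 CPM. The growth factor gene Ptn stood at 99.1 against 1.12 CPM and the keratin gene Krt19 at 65.3 against 3.22 CPM, both picked after their values were seen. Cdkn1a was at 128 against 435 CPM, Pax7 at 2.19 against 14.1 CPM, Myod1 at 17.8 against 63.1 CPM and Spp1 at 1711 against 3667 CPM. Their S and G2/M shares were 14.2% and 55.8%, against 15.7% and 54.2% at 2 UMIs, and their p53 pathway genes summed to 1287 against 3101 CPM. Y-linked transcripts (Eif2s3y, Uty or Kdm5d) were found in 67.4% of them, against 22.2% of cells with 2 UMIs and 15.5% with 0 UMIs. The share of cells with Y-linked RNA thus moved with Cdkn2a in old replicate 1. These shares used cells neither thinned nor matched on depth. Median depth in that sample was 15727 UMIs with 2 or more Cdkn2a UMIs and 12391 with 0. The part of depth in these shares, and of Y-linked RNA in the results of that sample, was not tested. The labels do not say whether this population came from animals of both sexes, and differences between cells and between animals cannot be told apart there. With these 310 cells left out before matching, 0 genes passed, Cdkn2b still had a log2 fold change of 1.31 and Myog one of -1.74.

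**Figure D5:**
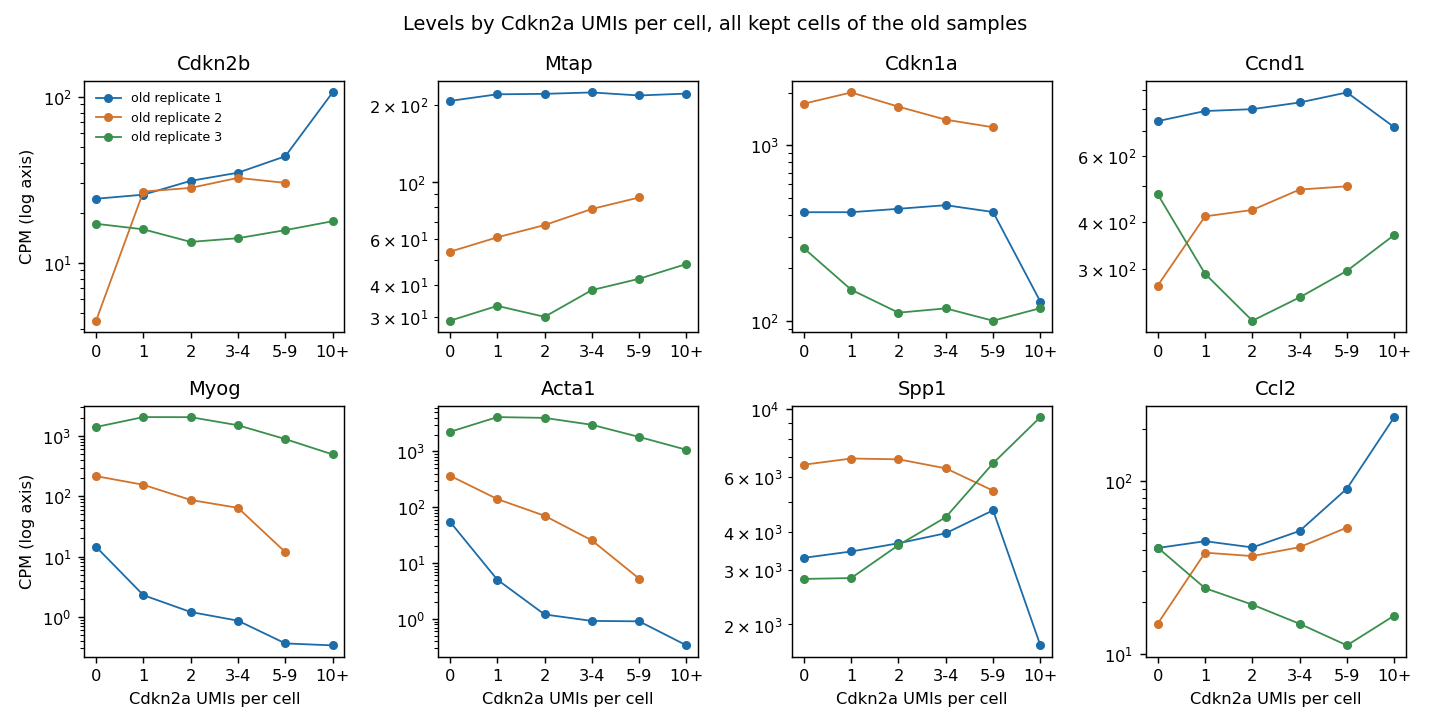
Unscaled CPM (log axis) of 8 genes by Cdkn2a UMIs per cell in the old samples (colours), over all kept cells, not matched on depth. The class of 5 cells with 10 or more UMIs in old replicate 2 is left out. Myog and Acta1 end lowest in the cells with the most Cdkn2a, and in old replicate 1 the class of 10 or more UMIs stands high for Cdkn2b and Ccl2 and low for Cdkn1a and Spp1.

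The young samples, which the definition did not use, gave a separate comparison of 221, 354 and 127 cells with 2 or more UMIs against as many without. These cells were 2.62%, 3.32% and 1.19% of the kept young cells. An even spread of the Cdkn2a UMIs over depth already gives 1.87%, 2.51% and 0.886%. Many of them can thus hold 2 UMIs through sampling alone, and the 2 kinds of young cell may differ little in Cdkn2a level. There 820 genes passed as higher (7.95%) and 1222 as lower (11.9%) of 10312 in edgeR, 19.8% in all. Without the sample as a block 0 passed and 26 had an unadjusted p under 0.05. Of 21 sarcomere genes 6 passed as lower and 0 as higher, and of 16 commitment genes 7 passed as lower and 1 as higher. Young replicate 3 went the other way in both lists, with 16 of 21 sarcomere genes higher (median log2 ratio 0.57, against -3.19 and -1.47 in young replicates 1 and 2) and 10 of 16 commitment genes higher. Myog, lower in all 3 young samples, stood at 4.17 against 25.1, 105 against 396 and 11.1 against 22.4 CPM (-1.87 ± 0.10 SE). Other genes named above matched the old direction only in part. Ifitm3 (log2 fold change -0.27, edgeR adjusted p = 2.56e-06), Mcpt8 (-0.48) and Gchfr (-0.30) were lower in all 3 young samples. Mcpt8 and Gchfr did not pass. Oxr1 (0.26, edgeR adjusted p = 0.0257), Sema3e, Mtap and Cdkn2b were higher in all 3, and of these only Oxr1 passed. H2-K1 was lower in 2 young samples. Genes longer than 200 kb had median log2 ratios of 0.32, 0.25 and 0.25 and genes shorter than 5 kb -0.22, -0.18 and -0.19. Gene length thus moved with this young comparison. Oxr1 and Sema3e, both higher, are longer than 200 kb. Ifitm3, Mcpt8, Gchfr, H2-K1 and Myog are shorter than 5 kb, as is Cdkn2b, which was higher. The part of gene length in the direction of these genes was not tested. In the old samples the same medians were 0.01, 0.00 and 0.09 for long and -0.03, -0.02 and 0.02 for short genes. The test of the difference between old and young called 0 of 11519 genes in edgeR, with 1449 (12.6%) at an unadjusted p under 0.05.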

How the data were processed

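Single-cell RNA was profiled in 3 young and 3 old MDSPC populations with a droplet-based 3′ kit. The deposited matrices hold raw UMI counts per gene and barcode. They were made by the authors with Cell Ranger, version 7.0.0 for young and old replicate 1 and 7.2.0 for the other 4 samples, per the file headers. The submitters' processing notes name Cell Ranger 7.2.0, Seurat 5.134 and mm10, and the annotation release, intron setting and cell calling are not given in the sources used here. The 2 gene lists (21849 and 32285 features) were joined on 21485 shared Ensembl identifiers. The different version cannot be told apart from those 2 populations.

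Kept barcodes had at least 5000 UMIs and under 15% mitochondrial UMIs. The members and gene lists were chosen with earlier results of these data known. Old samples held 151583483 to 185370326 UMIs. Cdkn2a-expressing cells and cells with 0 Cdkn2a UMIs were matched within sample in classes of 0.1 log2 total UMIs (seed 1) and summed, with Cdkn2a removed. Sums were tested with edgeR 4.0.16 (limma 3.58.1, R 4.3.3) by quasi-likelihood with TMM scaling, its default filter on low counts, and Benjamini-Hochberg adjustment at 0.05, with the sample as a block, since both kinds of cell come from the same population. CPM in comparisons are TMM-scaled, and by UMI class unscaled. Log2 ratios by sample use a prior count of 2, which understates low genes. Labels call the samples biological replicates but name no animals. The p-values thus measure how alike the difference between the 2 kinds of cell was across these populations. Phases (43 S and 54 G2/M genes, scanpy 1.11.5) and shares of cells used cells thinned to 5000 UMIs, tested by exact sign flips over 3 samples (smallest two-sided p 0.25).

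Every gene of 19 lists could be named. Beyond them the rule took up to 12 passing genes per direction with a mean log2 CPM above 5 and 1 direction in all samples, or up to 6 by unadjusted p where none passed. On simulated counts for the old comparison, 54.1%, 88.3% and 99.5% of genes changed 1.5-fold, 2-fold and 4-fold were recovered (13029, 13027 and 13021 genes tested, with 6, 9 and 6 false calls). The simulation gave all genes the same spread and each changed gene the same fold change in every sample. In the data, changes differed between samples, as with sarcomere medians of -2.37, -2.12 and -0.15. Recovery of such changes was not tested, so 0 calls do not exclude them. DESeq2 1.42.0, other cutoffs, draws, filters and left-out samples were alternatives. One gene of the secreted lists counts in the list totals and is not reported here by name.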

Additional observations from a re-analysis of the deposited data

Results flagged for a closer look

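Cdkn2a was read in barcodes that no comparison used, those under 1000 UMIs. In old replicate 3 these 192 barcodes held 22 Cdkn2a UMIs among 135778, or 162 CPM, against 21.6, 0 and 0 CPM in the young samples and 494 CPM over the kept cells of the same sample. In old replicates 1 and 2 such barcodes held 1 Cdkn2a UMI each.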

How the results depend on the processing

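The main count of 0 genes in the old samples became 8 with DESeq2. It became 80 with cells thinned to 5000 UMIs, chosen anew by their thinned Cdkn2a UMIs and not matched. With 1 old population left out it was between 0 and 49, 49 without old replicate 3 and 2 without old replicate 2. It stayed at 0 with no replicate block (3 genes at an unadjusted p under 0.05) and under the other alternatives, of which 2 were chosen after seeing the data. The young count of 2042 became 0 with no replicate block and 1111 to 1459 with 1 young population left out, lowest without young replicate 2. The test of old against young gave 0 genes with no replicate block. The cause was not tested in any of these.

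The phase shares had no settled direction. Thinned unmatched cells were again those chosen by the Cdkn2a UMIs left after thinning. The mean S difference was -0.0910 points for cells with 3 or more Cdkn2a UMIs, and 0.563 to 2.37 points with 1 population left out. The G2/M difference was -3.11 points with a cutoff of 1 UMI, -1.96 with 3, -2.18 for thinned unmatched cells, -1.27 with another random draw, -1.32 without the highest Scrublet scores and -0.499 to 1.302 with 1 population left out, lowest without old replicate 2. The share in neither phase differed by 2.44, 2.05, 1.43, 0.380 and 0.136 points under the first 5 of these, and by -1.87 to -1.28 points with 1 population left out. The Top2a share turned to 0.797 points without thinning, 1.01 for thinned unmatched cells, and ran from -3.70 to 0.949 with 1 population left out, highest without old replicate 3. The Myod1 share turned to -1.51 points with 3 or more UMIs, -2.13 for thinned unmatched cells, -0.224 without the highest Scrublet scores and to between -5.83 and 4.77 with 1 population left out, lowest without old replicate 3. The Pax7 share ran from -0.445 points without old replicate 3 to 4.54 without old replicate 2. The log2 fold change of Gdf15 turned to -0.018 for thinned unmatched cells and that of Gadd45a to 0.080 with Myog-positive cells left out. The cause was not tested.

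The number of cells without Cdkn2a limits old replicate 3, where 233 cells of each kind entered.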
